A study of Mus musculus with 2 samples.

Results

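Chromatin accessibility was described at 7 genes that code for the giant and cross-linking scaffold proteins of the sarcomere, the contractile unit of striated muscle. They are Ttn (titin), Neb (nebulin), Mybpc1 and Mybpc2 (the slow and fast myosin binding protein C), Mybph (myosin binding protein H), Myom1 and Myom2 (myomesin 1 and myomesin 2). The genes were taken by name, as 7 of 21938 annotated protein-coding genes, and each was studied over its gene body plus 10 kb on either side, here called its window. The windows held 234 of the 66984 peaks of replicate 1 and 319 of the 258342 peaks of replicate 2, and 101 shared peaks, which are regions where peaks of both libraries overlap by at least 1 bp.

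The data are DNase-seq, in which DNase I cuts open chromatin and the cut ends are read, from whole gastrocnemius of female B6CASTF1/J mice, an F1 hybrid of C57BL/6J and CAST/EiJ, at 2 months of age. Both libraries belong to the same group and differ in biosample and animal number, but the labels name 1 donor for both, so the spread between them may be technical. With no second group, no p-value is given, the depth is unknown, and the text describes peaks with the signal that the authors gave each of them, on a scale that is not stated. In whole tissue, fewer cells with an open site and less opening per cell cannot be told apart.

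The tissue was checked with marker genes, by whether both libraries had a peak near an annotated start, within 1 kb. All 10 markers of the skeletal muscle fibre did, as did 4 of 4 fibroblast, 3 of 4 endothelial, 2 of 3 smooth muscle and 1 of 3 Schwann cell markers. Over all protein-coding genes, 60.0% did. None of the 4 cardiomyocyte, 3 hepatocyte or 3 leukocyte markers did, the heart genes Myh6 and Nppa among them. In replicate 2 alone, 1 cardiomyocyte, 1 hepatocyte and 2 leukocyte markers had such a peak, against 70.8% of all protein-coding genes. The leukocyte markers had 1 to 3 shared peaks each in their windows. The list of replicate 2 was longer and richer in low signals, with 40.9% of its peaks below 0.3, against 14.5% in replicate 1. Peaks below 0.3 are called weak here and the others stronger.

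Titin reaches from the Z-disc to the M-band of the sarcomere and acts as a molecular spring and ruler. Nebulin runs along the thin filament, the myosin binding proteins C and H sit on the thick filament, and the myomesins tie neighbouring thick filaments together at the M-band. The genes of such muscle proteins are known to be read by the MyoD family, which binds E-boxes, by MEF2 factors, and by serum response factor, which binds CArG boxes.

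The sequences on which the account of the promoters rests are printed here from the C57BL/6J reference (RefSeq, GRCm38.p6), on the strand of the gene and 5′ to 3′, so letters of the CAST/EiJ copy are not shown. For each gene the first is the shared peak with the best mean rank among those within 1 kb of any annotated start. Where another shared peak lay closer to a start of the GENCODE basic set, which leaves out many fragmentary transcripts, it is printed too, a choice made after its values were seen. Peaks that cross a start are printed only to shortly past it. Capitals mark bases that lie in footprints of both libraries, footprints being the authors' short stretches with fewer cuts inside open DNA.
Ttn 5′ promoter (chr2:76982518-76982680, minus strand): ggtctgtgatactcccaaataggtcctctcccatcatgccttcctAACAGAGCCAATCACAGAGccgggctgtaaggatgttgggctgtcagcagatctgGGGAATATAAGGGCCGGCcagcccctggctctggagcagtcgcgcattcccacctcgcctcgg
Neb alternative start (chr2:52335181-52335380, minus strand): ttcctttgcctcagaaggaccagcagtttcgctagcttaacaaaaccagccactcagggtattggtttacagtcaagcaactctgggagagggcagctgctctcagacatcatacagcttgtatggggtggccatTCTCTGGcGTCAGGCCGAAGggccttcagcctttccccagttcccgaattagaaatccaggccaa
Mybpc1 promoter (chr10:88605123-88605260, minus strand): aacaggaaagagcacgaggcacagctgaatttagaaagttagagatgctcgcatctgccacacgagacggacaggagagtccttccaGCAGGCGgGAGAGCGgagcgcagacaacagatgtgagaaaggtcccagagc
Mybpc2 upstream promoter peak (chr7:44525141-44525420, minus strand): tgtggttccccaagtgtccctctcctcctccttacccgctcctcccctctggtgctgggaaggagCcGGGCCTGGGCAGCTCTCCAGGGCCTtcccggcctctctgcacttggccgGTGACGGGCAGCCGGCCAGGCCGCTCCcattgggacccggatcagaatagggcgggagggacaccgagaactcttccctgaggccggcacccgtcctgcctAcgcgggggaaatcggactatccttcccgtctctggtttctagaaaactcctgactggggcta
Mybpc2 peak at the start (chr7:44524627-44524874, minus strand): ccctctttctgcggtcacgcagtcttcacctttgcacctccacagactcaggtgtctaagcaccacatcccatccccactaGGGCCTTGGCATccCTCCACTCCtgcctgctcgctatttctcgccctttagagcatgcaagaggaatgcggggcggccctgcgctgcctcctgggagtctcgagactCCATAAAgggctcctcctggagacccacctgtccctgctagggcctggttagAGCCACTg
Mybph promoter (chr1:134193141-134193440, plus strand): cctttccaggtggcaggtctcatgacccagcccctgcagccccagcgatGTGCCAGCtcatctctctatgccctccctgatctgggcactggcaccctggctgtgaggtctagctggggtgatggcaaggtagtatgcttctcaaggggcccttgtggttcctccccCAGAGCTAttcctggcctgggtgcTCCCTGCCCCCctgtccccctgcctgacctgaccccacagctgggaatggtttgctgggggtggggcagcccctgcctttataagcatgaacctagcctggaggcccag
Myom1 5′ end, shared with Myl12a (chr17:71002525-71002632, plus strand): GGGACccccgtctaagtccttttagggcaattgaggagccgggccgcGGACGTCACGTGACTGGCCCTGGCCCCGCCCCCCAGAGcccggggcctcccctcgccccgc
Myom1 peak at the basic start (chr17:71019361-71019550, plus strand): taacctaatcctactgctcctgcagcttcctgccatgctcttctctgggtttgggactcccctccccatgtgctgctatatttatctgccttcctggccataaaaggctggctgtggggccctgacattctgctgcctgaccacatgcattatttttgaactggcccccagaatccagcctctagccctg
Myom2 internal start (chr8:15060001-15060220, plus strand): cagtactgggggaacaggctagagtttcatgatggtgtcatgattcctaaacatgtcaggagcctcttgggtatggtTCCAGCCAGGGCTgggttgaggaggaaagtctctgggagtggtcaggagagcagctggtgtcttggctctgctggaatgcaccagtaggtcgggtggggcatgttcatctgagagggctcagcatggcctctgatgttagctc
Myom2 peak at the basic start (chr8:15057548-15057676, plus strand): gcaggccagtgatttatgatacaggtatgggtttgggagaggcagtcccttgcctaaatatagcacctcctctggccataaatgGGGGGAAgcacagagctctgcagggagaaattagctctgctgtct

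A further 5 peaks away from starts are printed because they were the strongest such site of their gene or, for the exonic one, because most titin peaks lay in exons. Of those longer than 300 bases, 300 are printed, around the point midway between the midpoints of the strongest peak of each library there.
Ttn intron (chr2:76807341-76807620, minus strand): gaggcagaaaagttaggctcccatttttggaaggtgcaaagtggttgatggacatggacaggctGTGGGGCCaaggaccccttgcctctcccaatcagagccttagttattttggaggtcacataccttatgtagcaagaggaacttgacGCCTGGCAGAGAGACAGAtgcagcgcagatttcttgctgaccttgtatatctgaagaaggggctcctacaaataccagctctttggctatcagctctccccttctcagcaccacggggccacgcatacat
Ttn intron with the exons on both sides (chr2:76899705-76900004, minus strand): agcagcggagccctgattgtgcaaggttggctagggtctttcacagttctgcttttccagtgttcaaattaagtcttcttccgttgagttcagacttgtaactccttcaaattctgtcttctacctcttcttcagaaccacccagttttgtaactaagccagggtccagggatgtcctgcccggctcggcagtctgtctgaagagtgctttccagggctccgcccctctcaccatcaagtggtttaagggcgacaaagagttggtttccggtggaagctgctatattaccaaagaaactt
Mybpc1 intron (chr10:88591121-88591380, minus strand): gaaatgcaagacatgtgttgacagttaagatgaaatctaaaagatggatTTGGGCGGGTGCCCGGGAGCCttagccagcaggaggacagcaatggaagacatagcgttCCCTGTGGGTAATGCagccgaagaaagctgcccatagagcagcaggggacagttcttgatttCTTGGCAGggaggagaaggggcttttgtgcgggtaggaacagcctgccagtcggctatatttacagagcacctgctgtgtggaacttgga
Mybph intron (chr1:134196035-134196334, plus strand): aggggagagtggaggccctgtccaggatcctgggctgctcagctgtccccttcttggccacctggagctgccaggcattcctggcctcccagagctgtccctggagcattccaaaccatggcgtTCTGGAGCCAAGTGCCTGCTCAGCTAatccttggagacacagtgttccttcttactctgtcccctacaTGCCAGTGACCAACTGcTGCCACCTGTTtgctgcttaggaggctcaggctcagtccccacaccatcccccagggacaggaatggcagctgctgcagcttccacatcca
Myom1 intron (chr17:71038835-71039134, plus strand): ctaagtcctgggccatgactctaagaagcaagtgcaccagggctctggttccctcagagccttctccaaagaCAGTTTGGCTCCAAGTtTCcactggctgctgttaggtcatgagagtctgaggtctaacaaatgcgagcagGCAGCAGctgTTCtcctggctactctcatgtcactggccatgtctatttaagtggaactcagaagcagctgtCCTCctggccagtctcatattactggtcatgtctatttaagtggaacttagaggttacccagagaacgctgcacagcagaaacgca

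Both libraries had a promoter peak at all 7 genes, and at 60.0% of all protein-coding genes. Each gene had at least 1 shared peak in its window, as did 71.5% of all protein-coding genes. The genes had a median of 9 shared peaks per window, against 2 over all protein-coding genes, or 1.44 against 0.32 per 10 kb of window. Titin alone held 137 of the 234 peaks of replicate 1, 124 of the 319 peaks of replicate 2 and 44 of the 101 shared peaks. Titin had a very large number of low peaks, most of them over its exons. Nebulin and Mybpc1 had the fewest shared peaks per 10 kb of the 7 genes, 0.34 and 0.37. Nebulin had 9 of them and Mybpc1 had 4, where the medians of other genes with windows of like length were 4 and 3. The highest signals in both libraries were in the windows of Myom1 and Mybph.

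**Figure D1:**
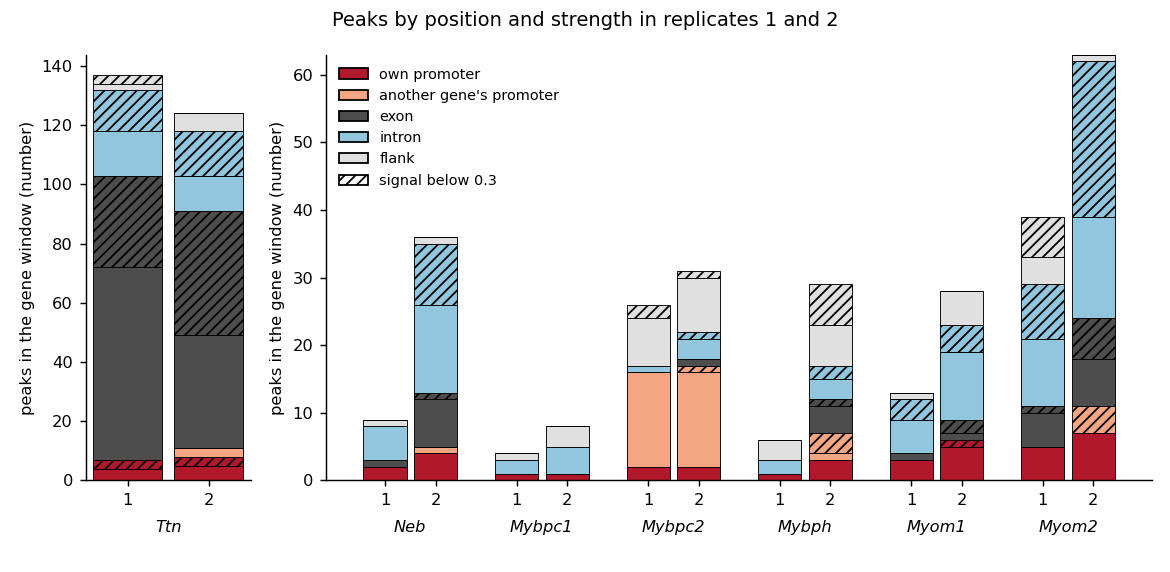
Number of peaks in the window of each gene (vertical axis, separate scales for Ttn and the other 6) in replicates 1 and 2, split by position (colours) and with peaks of signal below 0.3 hatched. Ttn had 137 and 124 peaks, most of them in exons, while exons made up a small part of the bars of the other genes.

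Titin was the one gene of the 7 with more peaks in replicate 1 than in replicate 2. Its window on chromosome 2 (gene body chr2:76703980-76982547, minus strand) had 137 peaks in replicate 1 and 124 in replicate 2 (130.5 ± 9.19, SD, n = 2). Among the 449 other genes with windows of 0.8 to 1.25 times this length, the medians were 5 peaks in replicate 1 and 20 in replicate 2. None of those 449 had as many peaks as titin in replicate 1, and 10 had as many in replicate 2. More peaks in replicate 1 than in replicate 2 were found in 5.39% of the 4918 protein-coding genes with at least 20 peaks in all.

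Only 3 titin peaks in each library reached a signal of 1. The strongest lay at the 5′ end, with a signal of 3.92 in replicate 1 and 7.16 in replicate 2, above 94.1% and 97.9% of the peaks in their lists. Its footprints in both libraries covered 2 stretches of the printed sequence, AACAGAGCCAATCACAGAG and, nearer the start, GGGAATATAAGGGCCGGC. A second promoter peak, 652 bp into the gene, had 1.53 in replicate 1 and 1.79 in replicate 2. The third site was in an intron 175 kb from the 5′ end (chr2:76807341-76807620), with 1.61 in replicate 1 and 2.26 in replicate 2. A weaker neighbour of this site, 174 kb from the 5′ end, had 0.76 in replicate 1 and 0.66 in replicate 2, with 77 of its 176 bases in an exon.

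Most of the other titin peaks lay in exons. Of its 41 shared peaks in the gene body away from annotated starts, 29 had their midpoint in an exon, or 70.7% (95% interval 54.5% to 83.9%), against 14.7% of such shared peaks over all genes. Exon blocks, 345 in number, make up 41.9% of the titin gene body, far more than in the other 6 genes, where the share ran between 5.21% and 29.9%. This share varies along the titin gene. Of 10 equal sections from the 5′ end, those with most shared peaks were section 10 (15 shared peaks, 72.4% exonic), section 3 (13, 43.7%) and section 4 (6, 45.7%). Whether the 70.7% exceeds the exon share of the sections that held the peaks was not tested. In the single libraries, 96 of 125 such peaks (76.8%) were exonic in replicate 1 and 80 of 107 (74.8%) in replicate 2. In the other 6 genes together, 2 of 23 shared peaks of this kind (8.70%, 95% interval 1.07% to 28.0%) were exonic, both in Myom2. In the single libraries of these 6 genes, 8 of 44 (18.2%) were exonic in replicate 1 and 30 of 117 (25.6%) in replicate 2. Over all genes the single-library shares were 17.2% in replicate 1 and 14.3% in replicate 2.

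The exonic titin peaks were low. Over the 29 shared ones the signal ran between 0.18 and 0.76 in replicate 1, with a median of 0.39, and between 0.10 and 0.76 in replicate 2, with a median of 0.36. The 12 shared peaks with their midpoint in a titin intron had medians close to these, 0.36 in replicate 1 and 0.34 in replicate 2. The best ranked exonic peak had 0.69 in replicate 1 and 0.74 in replicate 2. Its printed stretch, with 190 bases in 2 exons and the intron between them, held 1 footprint of replicate 1 and 6 of replicate 2, and none of these overlapped. The number of titin peaks depends on how far down the list of replicate 2 is read. With each library held to its 66984 strongest peaks, 8 titin peaks of replicate 2 and 5 shared peaks were left. Away from starts in the gene body, 96 of 125 peaks of replicate 1 were then exonic, 2 of 4 of replicate 2 and 2 of 3 shared ones.

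**Figure D2:**
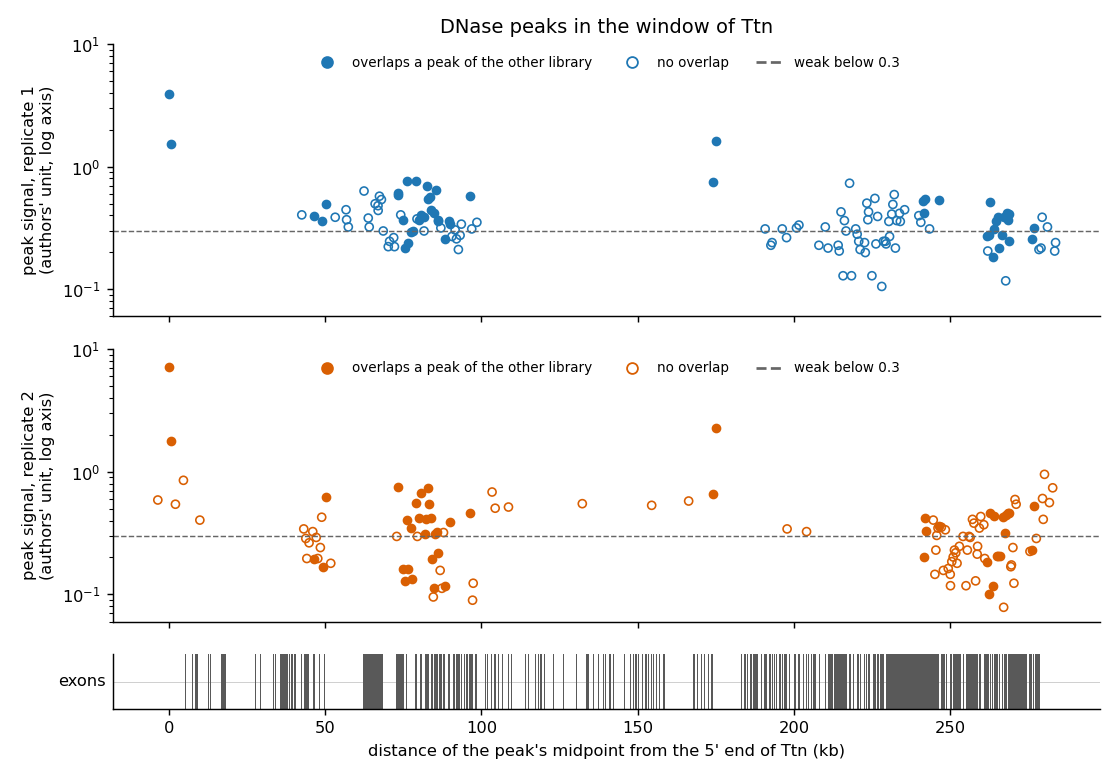
Signal of each Ttn peak (vertical log axis, the authors' unit) against the distance of its midpoint from the 5′ end in kb, for replicate 1 (upper) and replicate 2 (middle), with exons as grey bars (lower). Filled points overlap a peak of the other library, and the dashed line marks a signal of 0.3. The promoter and 2 sites near 175 kb stand apart, most other points lie in dense clusters over exons, and between 180 and 240 kb the 46 points of replicate 1 have no overlap with replicate 2.

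The exonic clusters were placed differently in the 2 libraries. Between 40 and 100 kb from the 5′ end, replicate 1 had 57 peaks and replicate 2 had 44, with 22 shared. Between 180 and 240 kb replicate 1 had 46 peaks, of which none overlapped a peak of replicate 2, which had 2 there. From 240 kb to the 3′ end, replicate 1 had 25 peaks and replicate 2 had 59, with 18 shared, and past the 3′ end each had 5, with 0 shared. Those limits were set after the map of the peaks had been seen. Between them, from 100 to 180 kb, where exons are short, the libraries had 2 and 8 peaks. The longest exon, of 17106 bp (chr2:76736064-76753169), which codes for part of the A-band section of the protein, held 18 peaks of replicate 1 and 9 of replicate 2, with 3 shared.

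**Figure D3:**
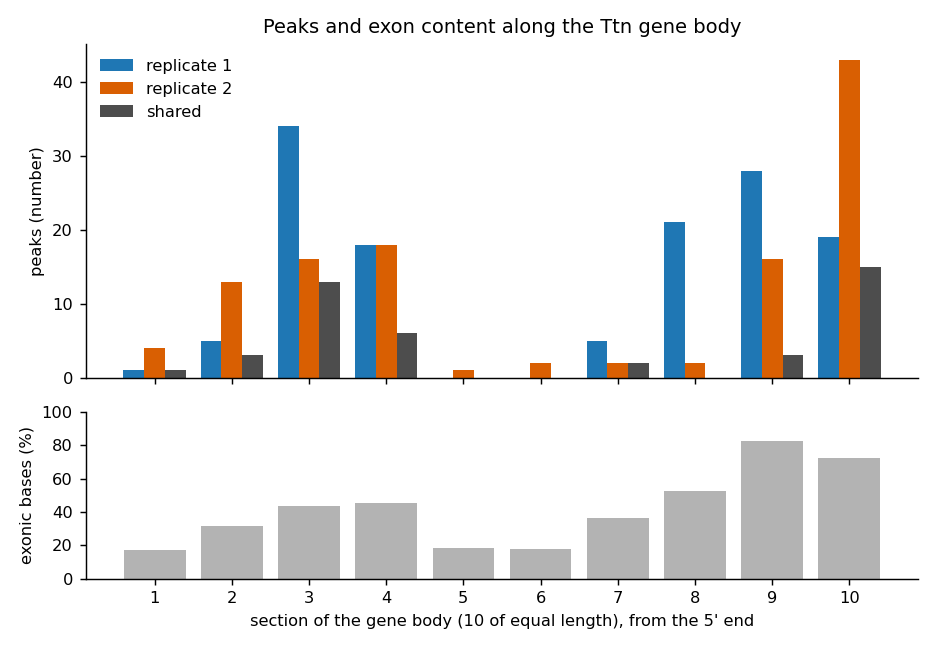
Peaks in 10 equal sections of the Ttn gene body, numbered from the 5′ end (upper, number of peaks in replicate 1, replicate 2 and shared), and the percent of bases in exons in the same sections (lower). Replicate 1 had most in sections 3 and 9 (34 and 28) and replicate 2 in section 10 (43), and sections 5 and 6, with 18.4% and 18.0% exonic bases, held at most 2 peaks of either library.

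The overlap of titin peaks with the other library lay under that of the whole list in replicate 1 and over it in replicate 2. In replicate 1, 37.2% of titin peaks were overlapped from replicate 2 (95% interval 29.1% to 45.9%), against 76.8% of its whole list, and 37.2% were weak, against 14.5%. In replicate 2, 39.5% of titin peaks were overlapped from replicate 1, against 20.2% of its whole list, and 48.4% were weak, against 40.9%. Among weak titin peaks, 12 of 51 in replicate 1 and 18 of 60 in replicate 2 were overlapped, against 15.3% and 1.29% of the weak peaks of the whole lists. In the other 6 genes this held for 0 of 20 weak peaks in replicate 1 and 2 of 65 in replicate 2. An overlap of 1 bp counted, and titin peaks covered 35.0 kb of the titin window in replicate 1 and 21.7 kb in replicate 2. Whether weak titin peaks overlapped more often than such crowded peaks would by position alone was not tested.

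Peaks that follow each other within 1 kb, at least 5 in a row, were counted as runs, a measure chosen after the peaks had been seen. Runs held 58.4% of titin peaks in replicate 1 and 65.3% in replicate 2, against 15.9% and 33.7% of the whole lists. Without runs, 8 shared titin peaks were left, and 3 of the 6 in the gene body away from starts were exonic. The authors' segments with a significant cut rate, a further deposited file, covered 29.4% of titin's exonic bases in replicate 1 and 23.6% in replicate 2, against 5.76% and 6.82% of its intronic bases. Exons were also covered more than introns in both libraries in Mybpc1, Myom1 and Myom2. For Myom2 it was 19.0% against 6.69% in replicate 1 and 51.4% against 20.5% in replicate 2. The order was reversed in both libraries in Mybph, and in replicate 1 only in Neb and Mybpc2. No Mybpc1 peak of either library was classed as exonic. In replicate 1 the covered exonic bases of Mybpc1 all lay in the first of 10 equal sections of the gene, which holds the promoter. In Myom2, a single exon block of 3169 bp was a large part of the 8.85 kb of exonic bases.

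Nebulin, coded on the same chromosome by a gene of similar length (chr2:52136647-52378474, minus strand), had 9 peaks in replicate 1 and 36 in replicate 2 (22.5 ± 19.1, SD, n = 2). All 9 peaks of replicate 1 overlapped one of replicate 2, and none was weak. The 2 strongest sat at alternative starts 43 kb from the annotated 5′ end. The one at chr2:52335181-52335380 had 1.83 in replicate 1 and 2.75 in replicate 2, and the one at chr2:52335661-52335840 had 1.94 in replicate 1 and 1.73 in replicate 2. No peak of either library lay within 1 kb of the start at position 52338798, which also belongs to the basic set, or of the annotated 5′ end. The printed site holds an E-box at position 94 (here and for the other sites the letters CAGCTG, since no other form of the E-box was sought), of which 5 bases lie in a footprint of replicate 1 and none in one of replicate 2.

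The best ranked nebulin sites away from starts had their midpoints in introns, though 89 bases of the last one named here are exonic. They had signals of 0.90 in replicate 1 and 1.65 in replicate 2 (chr2:52272261-52272440), of 0.92 and 1.32 (chr2:52331801-52332140), and of 0.97 and 1.02 (chr2:52238041-52238280). None of the 6 shared nebulin peaks in the gene body away from starts had its midpoint in an exon. Of the 27 peaks found in replicate 2 only, 10 were weak and the highest reached 1.28.

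The slow and fast myosin binding protein C genes differed in how crowded their windows were. Mybpc1, on chromosome 10, had 4 peaks in replicate 1 and 8 in replicate 2 (6.0 ± 2.83, SD, n = 2) in a window of 107 kb, and all 4 of replicate 1 were shared. Its promoter peak had 1.90 in replicate 1 and 2.79 in replicate 2, and an E-box at position 22 of the printed part lies in no footprint of either library. The intronic peak 13.9 kb into the gene (chr10:88591121-88591380) was higher in both, with 2.68 in replicate 1 and 3.96 in replicate 2. In the printed intronic sequence, 44 bases lie in footprints of both libraries, including all 6 of a GC box, GGGCGG, at position 52. A second intronic peak 12.6 kb into the gene had 1.07 in replicate 1 and 1.94 in replicate 2, and a peak beyond the 3′ end had 0.66 and 0.58.

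Mybpc2, on chromosome 7, had 26 peaks in replicate 1 and 31 in replicate 2 (28.5 ± 3.54, SD, n = 2) in a window of 43 kb, with 18 shared. Of these 18, 9 lay at starts of the neighbouring genes Emc10, Fam71e1 and Gm44646, and 6 in the flanks. The strongest in the window was at the start of Emc10, with 4.31 in replicate 1 and 7.26 in replicate 2. At Mybpc2 itself, the peak over the start had 2.91 in replicate 1 and 3.84 in replicate 2, and its footprints of both libraries covered CCATAAA. The peak 624 bp upstream was stronger, with 3.99 in replicate 1 and 6.25 in replicate 2, and had 54 bases in footprints of both libraries. An intronic peak 1373 bp into the gene had 2.62 and 4.02. One 3464 bp upstream had 3.0 and 5.87 and lay 3156 bp from a start of Spib, a leukocyte transcription factor gene. Flank peaks were placed without regard to the bodies of other genes. This one may therefore lie inside Spib and cannot be assigned to Mybpc2.

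Mybph, the shortest of the genes (chr1:134193448-134201232, plus strand), had its strongest site inside the gene. The intronic peak 2737 bp from the 5′ end (chr1:134196021-134196340) had 4.94 in replicate 1 and 7.96 in replicate 2, above 96.1% and 98.2% of their lists. The promoter peak, centred 148 bp upstream, had 2.27 in replicate 1 and 1.87 in replicate 2. In the printed intronic sequence, footprints of both libraries covered 53 bases, and the letters CAGCTG lay at positions 40 and 277, outside those bases. Other forms of the E-box, CANNTG, were not counted there. A second intronic peak 3222 bp from the 5′ end had 1.53 and 2.29, and one 2070 bp upstream had 1.09 and 1.40. Replicate 2 had 29 peaks in the window and replicate 1 had 6, with 4 shared, and the 25 others of replicate 2 did not exceed 0.75.

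**Figure D4:**
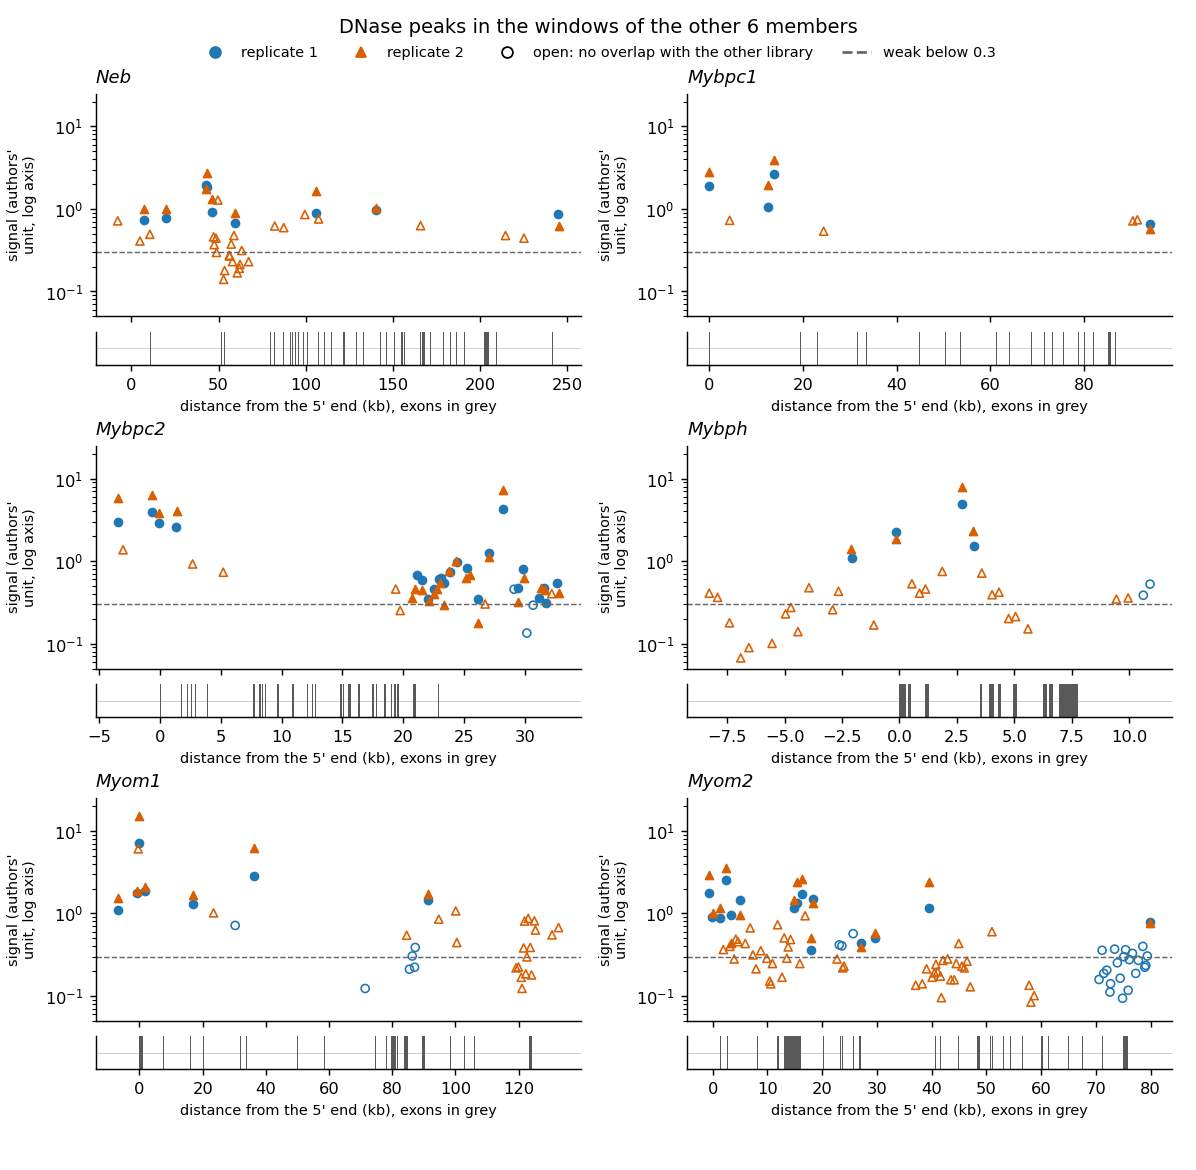
Signal of each peak (vertical log axis, the authors' unit) against the distance of its midpoint from the gene's 5′ end in kb for the other 6 genes, replicate 1 as circles and replicate 2 as triangles, with exons in grey under each panel. Filled symbols overlap a peak of the other library. Open circles stay at or below 0.71, while open triangles reach 6.05 in Myom1, 1.37 in Mybpc2 and 1.28 in Neb, and low peaks are mostly open, as in the 3′ part of Myom2, where replicate 1 had a run of 22.

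Myomesin 1, found in all striated muscle, had the strongest peak of the 7 windows. It lay at the annotated 5′ end of Myom1 (chr17:71002461-71002700) with 7.08 in replicate 1 and 15.2 in replicate 2, and its midpoint is 26 bp from a start of Myl12a, a myosin light chain gene read from the opposite strand. The peak therefore cannot be assigned to either gene. In its printed part, 43 bases lie in footprints of both libraries, among them a whole GC box at position 73. The basic-set starts of Myom1 lie 16.9 kb further in, where the peak had 1.29 in replicate 1 and 1.66 in replicate 2. That printed sequence holds a CArG box, CCATAAAAGG, at position 98, and no base of it lies in footprints of both libraries.

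Replicate 2 also had a peak of 6.05 at chr17:71002121-71002340, where replicate 1 had none. It lay between shared peaks that were near starts of both Myom1 and Myl12a. Inside the gene, the intronic peak 36.4 kb from the 5′ end had 2.86 in replicate 1 and 6.24 in replicate 2, above 90.2% and 97.5% of their lists. In its printed sequence E-boxes lay at positions 147 and 208, and 3 bases of the first lie in footprints of both libraries. Intronic peaks at 1.81 kb and 91.4 kb had 1.86 and 1.43 in replicate 1 and 2.08 and 1.72 in replicate 2. In all, Myom1 had 13 peaks in replicate 1 and 28 in replicate 2 (20.5 ± 10.6, SD, n = 2), with 7 shared, and a run of 13 at the 3′ end in replicate 2 had no counterpart in replicate 1.

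Myomesin 2, the myomesin of fast fibres, had 39 peaks in replicate 1 and 63 in replicate 2 (51.0 ± 17.0, SD, n = 2), with 15 shared. Its strongest shared peak (chr8:15060001-15060220) had 2.56 in replicate 1 and 3.53 in replicate 2 and lay at the start of a transcript with a retained intron, 2447 bp inside the gene. Around the start of the basic transcript, a peak 638 bp upstream had 1.76 in replicate 1 and 2.92 in replicate 2, and the peak over the start had 0.91 and 1.00. The sequence at the start holds a MEF2 site, CTAAATATAG, at position 54 and a CArG box, CCATAAATGG, at position 76. No base of the MEF2 site lies in a footprint of either library, and 8 bases of the CArG box lie in a footprint of replicate 2.

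Further shared peaks of Myom2 lay between 14.9 and 18.3 kb, over and beside an exon block of 3169 bp. The intronic one at 16.4 kb had 1.70 in replicate 1 and 2.64 in replicate 2, and the exonic one at 15.4 kb had 1.35 and 2.37. A further intronic peak at 18.3 kb had 1.49 in replicate 1 and 1.35 in replicate 2. Runs of peaks differed between the libraries by place. A run of 22 peaks at the 3′ end in replicate 1, 15 of them weak, spanned 9.49 kb, where replicate 2 had 1 peak. Replicate 2 had runs of 14, 15 and 19 nearer the 5′ end, with 2, 7 and 17 weak peaks. These runs of replicate 2 took in shared peaks as well, with signals up to 3.53, 2.64 and 2.43.

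**Figure D5:**
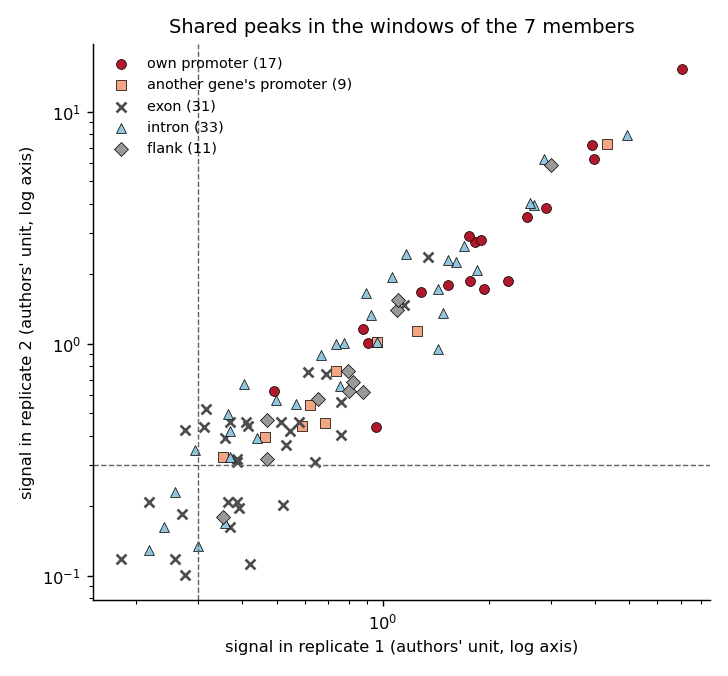
Signal in replicate 2 (vertical) against replicate 1 (horizontal) for the 101 shared peaks of the 7 windows, on log axes in the authors' unit, with symbols by position and dashed lines at 0.3. The 29 exonic and most of the 12 intronic sites of Ttn gather at the lower left, while the 21 intronic sites of the other 6 genes reach 0.3 in both libraries and the 2 exonic sites of Myom2 exceed 1 in both.

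Over the 101 shared peaks, 17 were at starts of the 7 genes and 9 at starts of other genes, with own starts taking precedence. The 17 therefore include Myom1 peaks that lay nearer a start of Myl12a. For chr17:71001701-71002020 the distance was 162 bp to Myl12a and 778 bp to Myom1, and for chr17:71002461-71002700 it was 26 bp and 53 bp. The 17 make 16.8% (95% interval 10.1% to 25.6%), where 44.4% of all shared peaks lay within 1 kb of any start. Signal was at least 0.3 in both libraries for 82 of the 101 shared peaks, and for 96.5% of all shared peaks. Of the 19 others, 18 were in titin. A footprint in both libraries was present in 68 of 101, or 67.3% (95% interval 57.3% to 76.3%), against 79.6% of all shared peaks. With signal of at least 0.3 in both, it was 64 of 82, against 81.6%. For titin the count was 25 of 44, and for the other 6 genes 43 of 57, of which Mybpc1 and Mybph had 4 of 4 each. Of 100 footprints of replicate 1 in shared titin peaks, 15 overlapped a footprint of replicate 2, and in the other 6 genes 58 of 123 did.

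Letters of known motifs were counted on either strand in 150 bp of each shared peak. These were centred midway between the midpoints of the strongest peak of each library there. The E-box CAGCTG was present in 20 of 101 (19.8%, 95% interval 12.5% to 28.9%), near the 19.2% of all shared peaks. Most of the 101 lay away from starts, and of all shared peaks away from starts 24.7% held the E-box. Its share was 20.5% in titin and 19.3% in the other 6 genes. The GC box GGGCGG, bound by Sp1-type factors, was present in 9 of 101 (8.91%, 95% interval 4.16% to 16.2%), below the 25.0% of all shared peaks and close to the 9.39% of shared peaks away from starts. CArG boxes were present in 3 of 101 and in 0.679% of all shared peaks, and a MEF2 site in 1 of 101 and in 0.696%. The MCAT motif CATTCC, bound by TEAD factors, was present in 8 of 101 and in 8.55% of all, and the AP-1 motif TGANTCA in 2 of 101 and in 6.44%. Of all shared peaks away from starts, 10.7% held MCAT and 9.23% held AP-1. In 300 bp around the same point, MCAT was present in 19 of 101 and in 15.9% of all shared peaks, and AP-1 in 9 of 101 and in 10.7%.

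A list of 36 partner genes was set beside the 7. It holds genes of related sarcomere proteins and of proteins known to bind, fold or turn over such proteins, chaperones and autophagy receptors among them. A promoter peak in both libraries was present in 33 of 36, against 60.0% of all protein-coding genes, and the median was 5 shared peaks per window. In replicate 1 alone it was 33 of 36, against 60.7% of all protein-coding genes, and in replicate 2 alone 35 of 36, against 70.8%. Myom3, a further myomesin gene, and Mybpc3 had a promoter peak in replicate 2 but not in replicate 1, and Mybphl had none in either. Mybpc3 codes for the cardiac myosin binding protein C, and Mybphl for a relative of MyBP-H known from the heart atrium. Ldb3 and Flnc were among the partners with most shared peaks, with 12 each. Ldb3, which codes for a Z-disc protein, had 16 peaks in replicate 1 and 72 in replicate 2, and Flnc, which codes for filamin C, had 16 and 32.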

How the data were processed

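DNase-seq peaks, footprints and cut-rate segments of 2 gastrocnemius libraries were read from the authors' deposited files on mm10, per the labels. The aligner and the peak caller are, for these libraries, not stated in the labels or files. Each peak list held a signal per peak, which the authors set on an unstated scale and which served here only to rank, filter and describe the peaks of that list. The deposited footprint lists carry the authors' p-value column, which held 0.01 in every row, and the segments were those with the authors' p-value (false discovery rate) of at most 0.05. The longer of the 2 peak lists of each library was used.

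The 7 genes, the 36 partner genes, the marker lists and the measures were chosen with earlier results of these data known. Gene models were GENCODE M21. A peak was placed by its midpoint, in the order own promoter (within 1 kb of any start), other promoter, exon, intron and flank. Named sites are, per gene, the shared promoter peak and the 3 other shared peaks with the best mean rank. Of the partners, those without a promoter peak in both libraries and the 3 with most shared peaks were to be named, of which 1 is not reported here. Where peaks of the 2 libraries overlapped, they were joined into a single shared peak. Intervals are exact Clopper-Pearson intervals at 95% and cover counting error only. Sequences were read from the RefSeq copy of GRCm38.p6. Scripts used Python 3.11.15, numpy 2.4.6, pandas 2.3.3, scipy 1.17.1 and matplotlib 3.10.9, and overlap, placing and motif search were tested on simulated data. Alternatives changed the list, window, promoter, overlap, weak limit, exon rule, footprint rule and motif window.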

Additional observations from a re-analysis of the deposited data

How the results depend on the processing

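Each of 11 results was recomputed under alternatives. All 7 genes kept a promoter peak under every alternative run, in both libraries or, where a library was left out, in the other one. The partner count stayed between 26 and 34 of 36 with both libraries, and was 33 in replicate 1 alone and 35 in replicate 2 alone. With each library held to its 66984 strongest peaks, shared peaks fell to 46, overlap was 20.5% in replicate 1 and 66.7% in replicate 2, weak peaks of replicate 2 were 0%, promoters 32.6%, exons 17.4%, footprints 84.8% and E-boxes 26.1%. The shorter lists gave 20% at promoters, 58.5% in exons, 78.6% with footprints and 17.1% with E-boxes. Leaving out a library gave 234 to 319 peaks, 8.97% to 9.72% at promoters, 49.1% to 61.5% in exons and 13.7% to 15.0% with E-boxes. The promoter share was 11.7% in gene bodies only, 11.6% with flanks of 50 kb, 11.9% and 19.8% with promoters of 500 bp and 2 kb, 13.9% with protein-coding starts and 10.9% with basic-set starts. The E-box share was 20.8% in gene bodies only and 25.7% in 300 bp. Weak peaks below 0.2 were 7.26% and 20.7%, and below 0.5 were 66.2% and 66.5%. Exons by any base gave 59.4%, and footprints that overlap each other 44.6%. Without Ttn there were 57 shared peaks, 63.9% overlap in replicate 1, 20.6% and 33.3% weak, 24.6% at promoters and 8.70% in exons. Outside runs there were 36 shared peaks and 15.0% in exons. Exon shares are of peaks in gene bodies away from starts. The basic-set starts, the sets without Ttn and those outside runs were added after the data had been seen, and the cause of each shift was not tested. Unknown depth limits every count. No paired analysis was possible because both libraries belong to 1 group.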

Other observations

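More peaks in replicate 1 than in replicate 2 were also found at some of the marker genes with at least 20 peaks in all. Of the 10 markers of the skeletal muscle fibre, 4 had this order, where 5.39% of such protein-coding genes had it, and the other 6 had more peaks in replicate 2. The 4 were named after their values were seen. Mylpf, the fast regulatory myosin light chain, had 23 peaks in replicate 1 and 12 in replicate 2. Ckm, muscle creatine kinase, had 36 and 28, Tnni2, fast troponin I, had 16 and 11, and Pvalb, the calcium buffer parvalbumin, had 28 and 27. Other fast-fibre genes had the opposite order, such as Tnnt3, fast troponin T, with 15 and 31, and Atp2a1, the calcium pump of fast fibres, with 45 and 60. Of the 3 fibroblast markers with as many peaks, 1 had more in replicate 1, Col6a1, a collagen VI chain, with 46 and 14. Of the 20 such partner genes, 0 had this order.

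The segments with a significant cut rate covered 7.44% of the Mybph window in replicate 1 and 38.4% in replicate 2. In Neb they covered 0.66% in replicate 1 and 3.22% in replicate 2, against medians over all protein-coding genes of 1.47% in replicate 1 and 2.92% in replicate 2.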
